A study of Mus musculus with 12 samples.

Results

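The 9 genes described here encode the machinery of inflammatory and lytic cell death. They are the inflammatory caspases Casp1, Casp4 and Casp12, the initiator caspase Casp8, the inflammasome genes Nlrp3 and Pycard, the pore former Gsdmd, and the necroptosis genes Ripk3 and Mlkl. They were chosen by name, with no threshold on their values, but with earlier results of these data known. Shares of all genes given beside them are therefore descriptions. All 9 had a row among the 24340 rows of the table. The retinas came from 6 p16‐3MR mice aged 12 to 16 weeks, which carry Renilla luciferase, a red fluorescent protein and a viral thymidine kinase under the control of the p16 regulatory region. The intraocular pressure (IOP) of 1 eye per mouse was raised and held at 85 to 90 mm Hg for 60 min. The contralateral retina is the control here. Mice 1, 2 and 5 received ganciclovir (GCV) at 25 mg/kg a day, which the viral kinase turns into a toxic compound, and mice 3, 4 and 6 were sham-treated with PBS. Retinas were taken on day 3. This gave 4 groups of 3 libraries: control and IOP‐treated retinas without GCV, and control and IOP‐treated retinas with GCV. All 12 libraries carry the transgene, so none shows GCV in mice without it, and the drug acts on any cell in which the p16 regulatory region is active.

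Inflammasomes are protein platforms that assemble when a sensor such as NLRP3 recognises damage or infection. The sensor recruits the adaptor ASC, the product of Pycard, which clusters and activates caspase-1. Caspase-1 cleaves the precursors of interleukin-1β and interleukin-18 and frees the pore-forming part of gasdermin D, and the cell then swells and lyses, which is called pyroptosis. Necroptosis is a separate lytic death, in which RIPK3 phosphorylates MLKL and MLKL permeabilises the plasma membrane. Caspase-8 stands between these routes, since it starts apoptosis at death receptors and, while active, restrains RIPK1 and RIPK3. In the retina, microglia and blood-derived myeloid cells are the classical carriers of inflammasome genes.

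Values are FPKM (fragments per kilobase of exon, relative to library size). The libraries held an estimated 4000000 to 9080000 fragments, the lowest being the IOP‐treated retina of mouse 6, with 14844 genes above 0 where the median library had 16264. Genes with an adjusted p below 0.05 are termed called, by limma on log2(FPKM + 1) with Benjamini-Hochberg adjustment over 18509 genes. Over the 6 IOP‐treated and 6 control retinas, 8 of the 9 genes were called higher after IOP elevation and Nlrp3 was not, in a fit that did not pair the eyes. With the mouse as a block 6 were called, without Casp4 and Casp12. Of all genes, 6.76% were called higher in that comparison. All 9 genes were higher in the IOP‐treated eye in 6 of 6 pairs, against 10.7% of all genes. In 8 of the 9, every IOP‐treated library lay above every control library, which held for 5.47% of all genes. For Casp12 in mouse 6, both counts rest on depth alone. Its IOP‐treated and control libraries each held 1.0 estimated fragment of Casp12, at 4000000 and 8680000 fragments in all. The median log2 fold change of the 9 genes was 1.10, and that of all genes was 0.01. In control retinas the 9 genes were low. Casp4, Casp12, Ripk3 and Mlkl held 1 to 4 estimated fragments over the 6 control libraries, and Casp8 held 53. Of the 54 control values 15 were 0, and the highest was 0.969 FPKM.

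**Figure D1:**
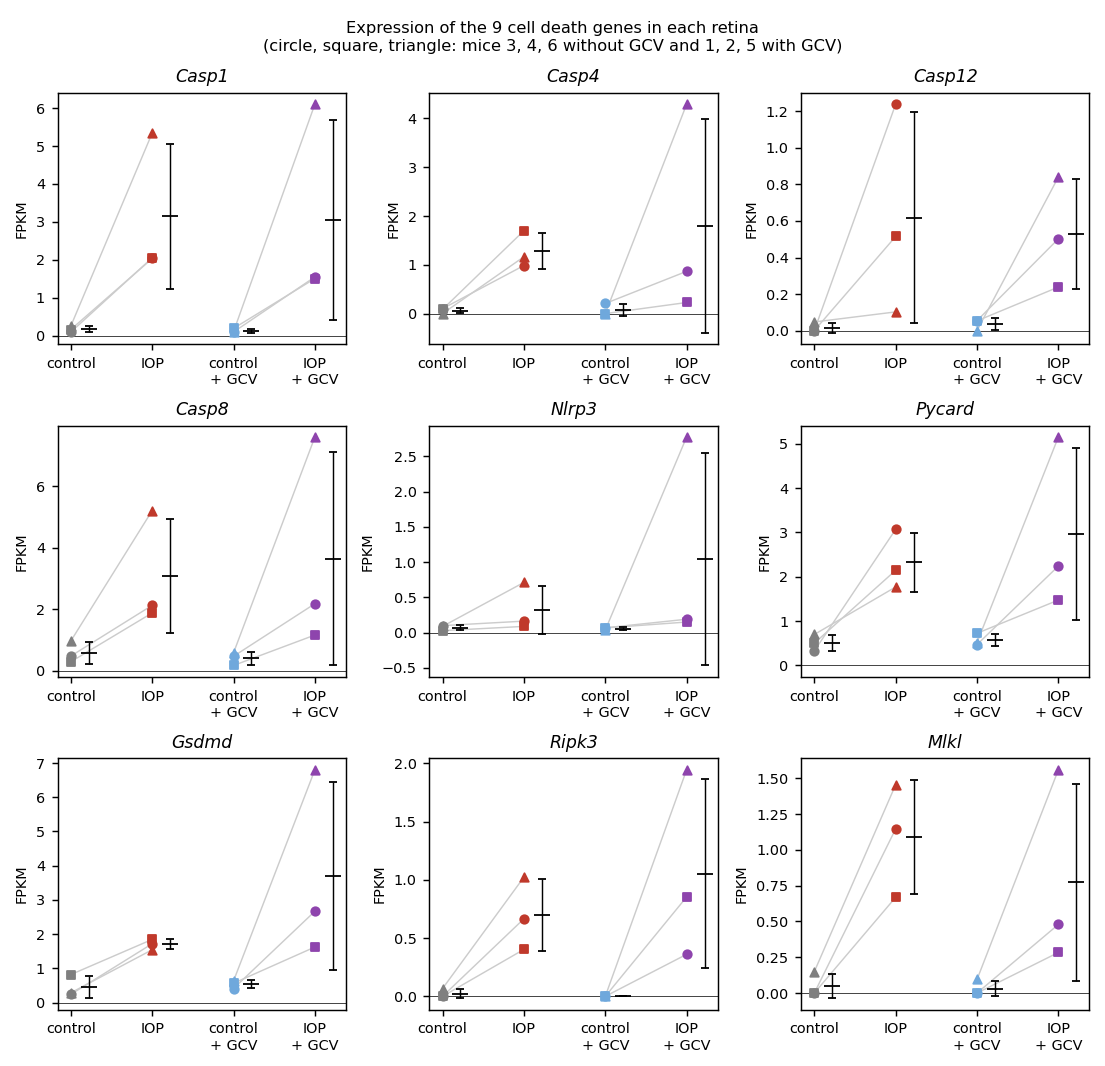
FPKM (y axis, linear, scaled per gene) of each gene in the 4 groups (x axis). Each point is 1 retina, grey lines join the eyes of a mouse, and black marks give mean ± SD (n = 3). Each line rises from the control to the IOP‐treated eye, and for 8 of the 9 genes the highest point is the IOP‐treated retina of mouse 5, which received GCV.

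Casp1, Casp4 and Casp12 lie next to each other on chromosome 9, on the plus strand. In the mm10 assembly (GRCm38.p6), Casp1 spans chr9:5298517-5307281, Casp4 chr9:5308849-5336791 and Casp12 chr9:5345442-5373034. The gap from Casp1 to Casp4 is 1567 bases and that from Casp4 to Casp12 is 8650 bases. The RefSeq promoter windows count from a start at 5345476 for Casp12, which lies 34 bases inside that gene span, and from the start of the gene span for Casp1. The 250 bases before these starts for Casp1 (chr9:5298267-5298516) and Casp12 (chr9:5345226-5345475), both on the plus strand, are shown because the neighbours were both called higher while the Casp12 window alone holds motif matches. Capitals mark matches to the GAS motif TTCNNNGAA.
Casp1: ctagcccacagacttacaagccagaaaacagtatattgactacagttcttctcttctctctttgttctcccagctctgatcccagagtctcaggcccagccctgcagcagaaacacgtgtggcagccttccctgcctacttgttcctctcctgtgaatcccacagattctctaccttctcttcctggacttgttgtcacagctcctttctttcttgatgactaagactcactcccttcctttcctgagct
Casp12: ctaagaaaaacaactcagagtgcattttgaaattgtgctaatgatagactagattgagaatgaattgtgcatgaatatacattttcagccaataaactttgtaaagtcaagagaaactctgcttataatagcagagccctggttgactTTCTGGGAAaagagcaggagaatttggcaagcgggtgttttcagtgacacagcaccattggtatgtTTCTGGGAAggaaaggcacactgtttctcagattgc
The same 9 letters, TTCTGGGAA, occur in the Casp12 window at positions -102 to -94 and -36 to -28 from the start of 5345476. The second match therefore lies across the edge of the printed gene span. The Casp1 window holds no match.

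RefSeq promoter windows, from 250 bases before to 50 after the start, were at hand for 8 of the 9 genes (10 windows, and none for Gsdmd). They were searched on both strands for the interferon-response (ISRE) core GAAANNGAA, for GAS, for the NF-kB motif GGGANTTTC and for the AP-1 motif TGANTCA, letter patterns that can overlap in the case of ISRE and GAS. Among all 32851 windows of this length, 8.56% held the ISRE core, 8.30% GAS, 1.11% the NF-kB motif and 7.81% the AP-1 motif. Of the 8 genes, Casp12 held the GAS matches above and Ripk3 held 1 ISRE core, and the other 6 held none of the 4 patterns in these windows. Only these exact letter patterns were searched, so a window without a match can still hold another form of a motif. The Ripk3 match lies at positions 15 to 23 after the start and is shown in capitals within 30 bases on the minus strand at chr14:55788824-55788853.
Ripk3: cctcttatttGAAAGGGAAgttgtgaagtc

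Casp1 encodes the protease at the end of the canonical inflammasome. It stood at 0.0956, 0.163 and 0.255 FPKM in the control retinas of mice 3, 4 and 6, and at 2.05, 2.04 and 5.34 FPKM in their IOP‐treated retinas. With GCV it stood at 0.0982, 0.193 and 0.108 FPKM in the control retinas of mice 1, 2 and 5, and at 1.55, 1.51 and 6.10 FPKM in the IOP‐treated ones. The groups did not overlap, and in each treatment 1 IOP‐treated retina, of mouse 6 and of mouse 5, stood well above the other two. Casp1 rose by 1.69 on the log2 scale over the 6 pairs (SE, the standard error, of 0.28, adjusted p = 0.0055, limma). On this scale of log2(FPKM + 1) the change of such low genes is understated. The estimated fragments were 10 in the 6 control libraries and 178 in the 6 IOP‐treated ones. Relative to depth this is a 19.0-fold higher rate, with a 95% exact interval of 10.1 to 40.4 that covers counting error only.

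Casp4 encodes caspase-11 in the mouse, the sensor of cytosolic lipopolysaccharide in the non-canonical pathway. Without GCV it stood at 0.101, 0.0859 and 0 FPKM in control retinas and at 0.985, 1.70 and 1.17 FPKM after IOP elevation (mice 3, 4 and 6). With GCV the control values were 0.207, 0 and 0 FPKM and the IOP values 0.866, 0.227 and 4.29 FPKM (mice 1, 2 and 5). Every IOP‐treated value was above every control value, but the margin was thin, since the lowest IOP value and the highest control value each rest on 2.0 estimated fragments. Casp4 rose by 1.10 on the log2 scale (SE 0.29, adjusted p = 0.0378), and the fragment rate was 25.1-fold higher (95% interval 9.50 to 94.2, from 4 and 94 fragments). Of these, 48.1 IOP fragments were from mouse 5 and 2.0 control fragments from mouse 1, so the ratio depends on single libraries. With the eyes of each mouse as a block, Casp4 was not called (adjusted p = 0.0582).

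Casp12 encodes an inflammatory-type caspase that has been linked to stress of the endoplasmic reticulum. In mice 3, 4 and 6 it stood at 0, 0 and 0.0470 FPKM in control retinas and at 1.24, 0.515 and 0.102 FPKM in IOP‐treated ones. In mice 1, 2 and 5 the control values were 0.0543, 0.0532 and 0 FPKM and the IOP values 0.502, 0.238 and 0.841 FPKM. Casp12 was the gene of the 9 whose highest value was not in mouse 5 but in mouse 3, and its lowest IOP value was in mouse 6, where it rests on 1.0 estimated fragment. Each control value above 0 rests on 1.0 estimated fragment as well, so in fragments the groups met. It rose by 0.58 on the log2 scale (SE 0.15, adjusted p = 0.0389), which was not called with the eyes as a block (adjusted p = 0.065). The fragment rate was 24.2-fold higher, and the interval of 7.95 to 120.5 is wide because the controls held 3 fragments in all.

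Casp8 was the most abundant of the 9 genes, with a mean of 1.93 FPKM over the 12 libraries. Control retinas of mice 3, 4 and 6 stood at 0.479, 0.293 and 0.969 FPKM, and their IOP‐treated retinas at 2.13, 1.88 and 5.21 FPKM. With GCV the control values were 0.472, 0.173 and 0.583 FPKM and the IOP values 2.18, 1.16 and 7.61 FPKM for mice 1, 2 and 5. Mouse 6 had the highest control value as well as the highest IOP value without GCV. Casp8 rose by 1.39 on the log2 scale (SE 0.33, adjusted p = 0.0269), and the fragment rate was 6.66-fold higher (95% interval 4.97 to 9.08). With each library left out in turn it was called in 7 of 12 fits, with adjusted p values of 0.0106 to 0.0715.

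Nlrp3, the best-known inflammasome sensor, was the gene of the 9 that did not pass the test. Without GCV it stood at 0.10, 0.0285 and 0.0891 FPKM in control retinas and at 0.163, 0.0889 and 0.713 FPKM in IOP‐treated ones (mice 3, 4 and 6). With GCV the control values were 0.0688, 0.0673 and 0.0378 FPKM and the IOP values 0.191, 0.151 and 2.77 FPKM (mice 1, 2 and 5). The groups overlapped, because the IOP‐treated retina of mouse 4 lay below the control retina of mouse 3. Most of the difference sat in the IOP‐treated retina of mouse 5, which held an estimated 94.0 fragments of Nlrp3 where the other 5 IOP‐treated retinas held 3.0 to 11.0. Its log2 fold change came to 0.49 (SE 0.27, adjusted p = 0.248), with a 95% interval from -0.10 to 1.08.

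Pycard encodes the adaptor ASC, which joins the sensor to caspase-1. It stood at 0.327, 0.502 and 0.698 FPKM in the control retinas of mice 3, 4 and 6, and at 3.07, 2.15 and 1.77 FPKM in their IOP‐treated retinas. For mice 1, 2 and 5, with GCV, the control values were 0.471, 0.726 and 0.518 FPKM and the IOP values 2.24, 1.47 and 5.15 FPKM. The lowest IOP‐treated value was above the highest control value, and mouse 6, which stood high for Casp1 and Casp8, was the lowest of the mice without GCV here. Pycard rose by 1.18 on the log2 scale (SE 0.21, adjusted p = 0.00761), on 51 control and 244 IOP fragments, a 5.12-fold higher rate (95% interval 3.77 to 7.07).

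Gsdmd encodes the pore that caspase-1 and caspase-11 release. It stood at 0.240, 0.818 and 0.285 FPKM in control retinas without GCV and at 1.72, 1.85 and 1.54 FPKM in the IOP‐treated retinas of the same mice (3, 4 and 6). With GCV, mice 1, 2 and 5 had 0.411, 0.565 and 0.633 FPKM in control retinas and 2.67, 1.62 and 6.80 FPKM in IOP‐treated retinas. The IOP‐treated retinas without GCV lay close together (1.70 ± 0.15 FPKM, SD, n = 3), and those with GCV were spread widely (3.70 ± 2.74 FPKM). Gsdmd rose by 1.19 on the log2 scale (SE 0.23, adjusted p = 0.0127), and the fragment rate was 5.83-fold higher (95% interval 4.11 to 8.47).

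Ripk3, the kinase of necroptosis, was all but missing from control retinas. It was at 0 FPKM in the control retinas of mice 3 and 4, at 0.0673 FPKM (1.0 estimated fragment) in that of mouse 6, and at 0 in the 3 control retinas with GCV. After IOP elevation it stood at 0.666, 0.403 and 1.02 FPKM in mice 3, 4 and 6, and at 0.361, 0.853 and 1.94 FPKM in mice 1, 2 and 5. Each of the 6 IOP‐treated libraries held at least 5.0 estimated fragments. Ripk3 rose by 0.84 on the log2 scale (SE 0.16, adjusted p = 0.0123). The ratio of fragment rates was 70.6, with a 95% interval of 12.2 to 2831 because it rests on 1 control fragment.

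Mlkl, whose product breaches the membrane downstream of RIPK3, followed the same course. Control retinas without GCV stood at 0, 0 and 0.149 FPKM and IOP‐treated ones at 1.15, 0.669 and 1.46 FPKM (mice 3, 4 and 6). With GCV the control values were 0, 0 and 0.0948 FPKM and the IOP values 0.480, 0.284 and 1.56 FPKM (mice 1, 2 and 5). The groups did not overlap. Mlkl rose by 0.85 on the log2 scale (SE 0.16, adjusted p = 0.0113), and its fragment rate was 22.1-fold higher (95% interval 7.22 to 110.1, from 3 and 62 fragments). Casp1, Pycard, Gsdmd, Ripk3 and Mlkl were called in all 12 fits that left out 1 library, and Casp4 and Casp12 in 4 each.

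The comparisons within the mice without GCV and within the mice with GCV share no libraries in their group means, and the comparison over the 6 pairs contains them both. The p values draw on 1 estimate of the spread from all 12 libraries, so the comparisons are not independent of each other. Without GCV the log2 fold changes ran from 0.27 for Nlrp3 to 1.73 for Casp1. With GCV they ran from 0.54 for Casp12 to 1.66 for Casp1. All 9 were above 0 in each, but none was called in either, where 1.42% and 1.65% of all genes were called higher. At an unadjusted p under 0.05, 8 of the 9 passed in each, all but Nlrp3, where 9.49% and 10.0% of all genes were higher and passed. The adjusted p values were 0.0611 to 0.708 without GCV and 0.055 to 0.338 with GCV. These counts depended on the pseudocount and on single libraries. With a pseudocount of 0.1, which gives low values more weight, 4 of the 9 were called without GCV and 5 with GCV. The calls over all genes, in either direction, rose too, from 306 to 464 without GCV and from 334 to 535 with GCV.

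**Figure D2:**
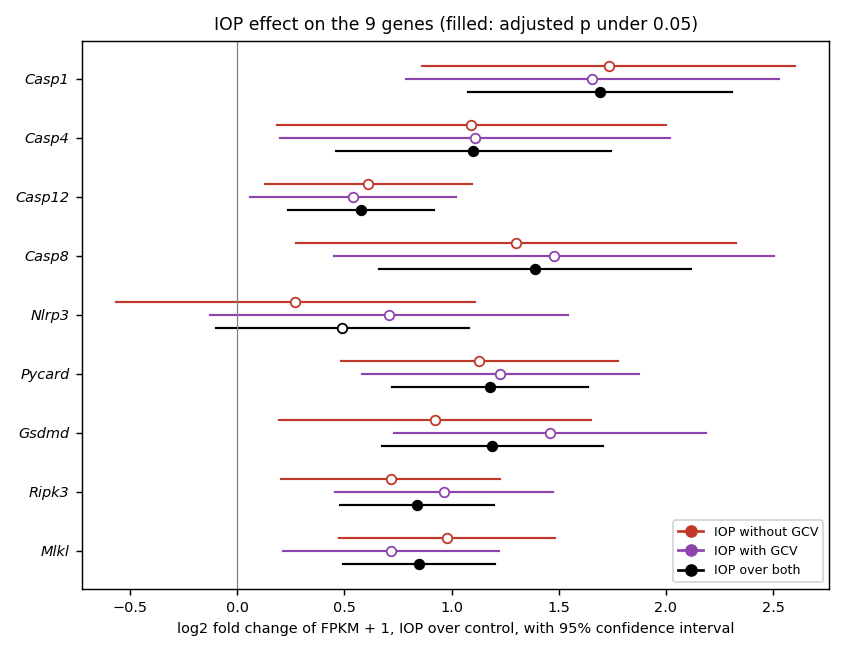
Log2 fold change of FPKM + 1 (x axis) of each gene (y axis) between IOP‐treated and control retinas, without GCV (3 mice), with GCV (3 mice) and over the 6 mice, with 95% confidence intervals. Over the 6 mice, 8 of the 9 symbols are filled (called), and the intervals of the mice with and without GCV overlap for every gene.

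Whether GCV changed the response was tested as the difference between the IOP effect with and without GCV. None of the 9 genes was called by limma, none had an unadjusted p under 0.05, and 0.0% of all genes were called (1.93%, or 358 of 18509, at an unadjusted p under 0.05). The differences on the log2 scale, with GCV minus without, ran from -0.26 for Mlkl (95% interval -0.97 to 0.45) to 0.54 for Gsdmd (-0.49 to 1.57). For Casp1 the difference was -0.08 (-1.31 to 1.15) and for Casp8 it was 0.18 (-1.27 to 1.63). These intervals leave room for changes in the response of over 1 unit on the log2 scale in either direction for Casp1 and Casp8, so a difference was not detected, and equal responses were not shown.

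IOP‐treated retinas with and without GCV, which come from different mice, were also compared directly. None of the 9 genes was called and none had an unadjusted p under 0.05 (limma), where 0.0% of all genes were called and 774 (4.18%) had an unadjusted p under 0.05. Of the 9, Gsdmd had the smallest unadjusted p, with a log2 fold change of 0.64 towards the GCV group (95% interval -0.08 to 1.37, adjusted p = 0.819). In control retinas, GCV called none of the 9 either (0.0% of all genes, and 295, or 1.59%, at an unadjusted p under 0.05). The summed FPKM of the 9 genes was 1.34 to 2.56 in control retinas without GCV and 1.78 to 1.98 with GCV. In IOP‐treated retinas it was 11.3 to 18.3 without GCV and 7.52 to 37.1 with GCV, so that the retinas with the lowest and the highest sum after IOP elevation, of mice 2 and 5, were both from the GCV group.

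The wider pathway was followed through 4 lists of genes. Of 18 inflammasome sensors and regulators measured, 6 were called higher over the 6 pairs and none lower, with a median log2 fold change of 0.33. Zbp1, a sensor of Z-form nucleic acids that engages RIPK3, had the smallest adjusted p of the list. It stood at 0.413, 0.120 and 0.187 FPKM in control retinas and 12.6, 14.0 and 9.97 FPKM in IOP‐treated retinas without GCV. With GCV it stood at 0.218, 0.635 and 0.944 FPKM in control retinas and 14.6, 6.78 and 14.7 FPKM in IOP‐treated retinas. Zbp1 rose by 3.19 on the log2 scale (SE 0.20, adjusted p = 0.000106) and was also called within the mice without GCV (3.41, adjusted p = 0.00251) and within those with GCV (2.98, adjusted p = 0.00271). Txnip, a thioredoxin inhibitor that can bind NLRP3, rose from a mean of 2.98 to 13.8 FPKM (6 libraries each, log2 fold change 1.71, adjusted p = 0.0154). P2rx7, the ATP-gated channel upstream of NLRP3, rose from 0.208 to 1.61 FPKM (log2 fold change 1.02, adjusted p = 0.0183). The other 3 called were Pstpip1, Naip2 and Nlrp1b, of which Naip2 and Nlrp1b have close paralogs that could share reads. With the eyes as a block 4 of the 18 were called.

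Of 7 gasdermins, membrane rupture factors and cytokine substrates measured, 2 were called higher and none lower (median log2 fold change 0.45). Il1b, the main cytokine substrate of caspase-1, stood at 0.111, 0 and 0.296 FPKM in control retinas and 2.06, 5.61 and 6.62 FPKM in IOP‐treated retinas of mice 3, 4 and 6. In mice 1, 2 and 5 it stood at 0.455, 0.112 and 0.627 FPKM in control retinas and 4.98, 3.00 and 40.3 FPKM in IOP‐treated retinas. The groups did not overlap, and Il1b rose by 2.55 on the log2 scale (SE 0.51, adjusted p = 0.0137). Ninj1, which ruptures the membrane after pore formation, rose from a mean of 10.4 to 29.0 FPKM (log2 fold change 1.18, adjusted p = 0.0417), but the IOP‐treated retina of mouse 5 alone held 73.5 FPKM, and with the eyes as a block Ninj1 was not called (adjusted p = 0.0698). Il18, the other cytokine substrate, was already well expressed in control retinas, with a mean of 7.02 FPKM against 10.2 FPKM after IOP elevation, and was not called (log2 fold change 0.45, adjusted p = 0.237).

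Of 14 apoptotic caspases and apoptosome genes measured, 2 were called higher and none lower, and the median log2 fold change was 0.17. The called genes were Birc5, which encodes survivin, an inhibitor of apoptosis that is also needed for cell division, and Casp6, an effector caspase. Birc5 rose from a mean of 0.317 to 2.37 FPKM (log2 fold change 1.31, adjusted p = 0.00841) and Casp6 from 3.01 to 6.10 FPKM (log2 fold change 0.81, adjusted p = 0.0268). Casp9, the caspase of the apoptosome, had means of 8.70 and 8.14 FPKM and was not called (log2 fold change -0.09, adjusted p = 0.557). Per length, then, Casp9 was more abundant in control retinas than any of the 9 genes, none of which reached 1 FPKM there. Casp1, Casp4, Casp8 and Casp12 also stand in the study's own apoptosis gene list.

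Of 18 genes of the death receptor complex and the regulators of necroptosis, 4 were called higher and 1 lower, with a median log2 fold change of 0.27. Ripk1, the kinase that joins death receptors to RIPK3, rose from a mean of 1.53 to 4.08 FPKM without overlap of the groups (log2 fold change 0.96, SE 0.19, adjusted p = 0.0145). Tnfrsf1a, which encodes the tumour necrosis factor receptor upstream of it, rose from a mean of 4.46 to 14.8 FPKM (log2 fold change 1.51, adjusted p = 0.000774). Tnfaip3 encodes A20, a ubiquitin-editing enzyme that restrains NF-kB signaling and necroptosis, and was the gene called lower. It stood at 91.1, 85.8 and 87.5 FPKM in control retinas and 45.2, 42.0 and 36.1 FPKM in IOP‐treated retinas of mice 3, 4 and 6. With GCV it stood at 85.9, 74.6 and 85.8 FPKM in control retinas and 57.8, 65.6 and 32.5 FPKM in IOP‐treated retinas. Every IOP‐treated library was below every control library, and Tnfaip3 fell by 0.90 on the log2 scale (SE 0.15, adjusted p = 0.00609). Fadd, the adaptor that recruits caspase-8, had means of 2.86 and 4.16 FPKM and was not called (log2 fold change 0.41, adjusted p = 0.0669). The other genes called higher were Ticam1 and Tnfsf10. With the eyes as a block 3 were called higher and 1 lower.

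**Figure D3:**
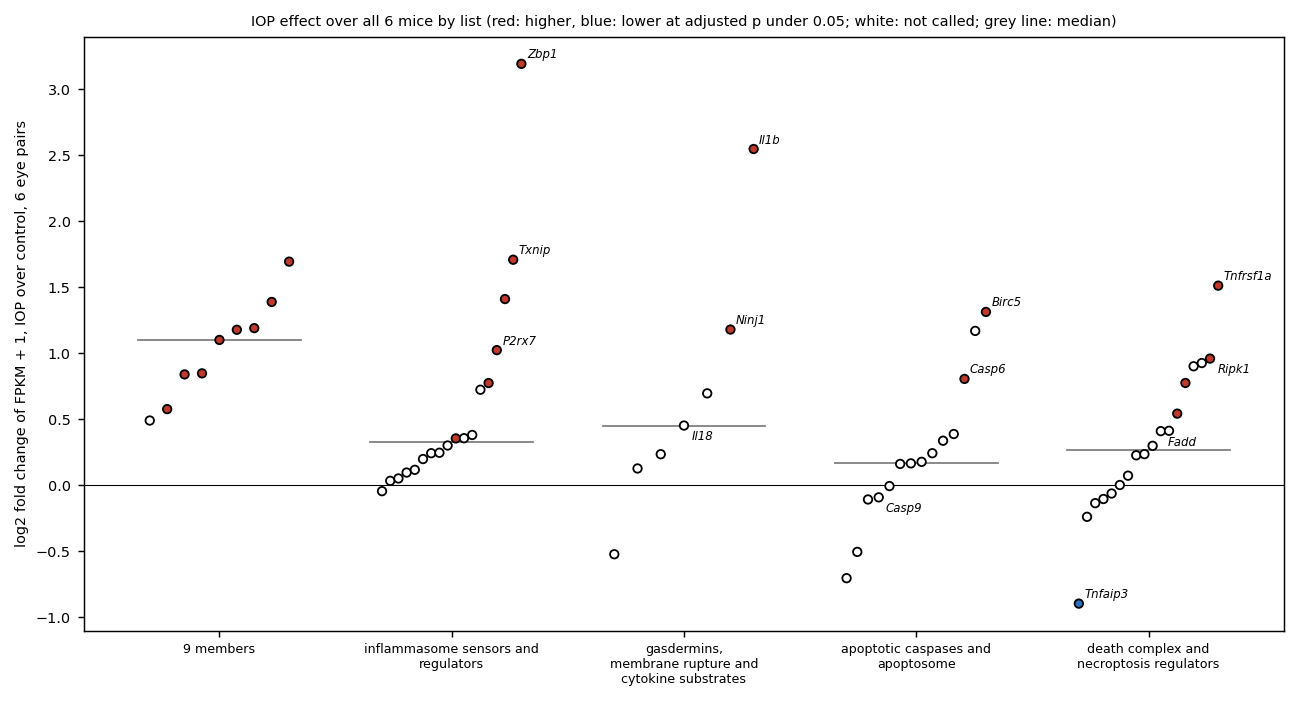
Log2 fold change of FPKM + 1 over the 6 eye pairs (y axis) for the 9 genes and the 4 pathway lists (x axis). Each point is a gene, filled where called, and grey lines mark medians. The median is 1.10 for the 9 genes and 0.17 to 0.45 for the lists, and Tnfaip3 is the filled point below 0.

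These are whole retinas, in which more cells of a type and more RNA per cell cannot be told apart. Markers of immune cells moved with the 9 genes. Of 12 microglia markers, 9 were called higher and none lower over the 6 pairs, led by the complement genes C1qa, C1qb and C1qc. Their summed FPKM was 72.7 to 118.1 in control retinas and 302.3 to 507.3 after IOP elevation without GCV, and 86.0 to 98.6 and 283.2 to 597.7 with GCV. Tmem119, P2ry12 and Sall1, which mark resident microglia, were the 3 not called. Of 13 markers of infiltrating leukocytes 9 were called higher, led by Plac8, Ccr2 and Ly6c2. Their sum was 9.87 to 48.1 in control and 328.1 to 748.1 in IOP‐treated retinas without GCV, and 12.5 to 37.6 and 178.7 to 2528 with GCV. In IOP‐treated retinas most of this sum, 69.2% to 92.2%, is Lyz2, a lysozyme that other myeloid cells, microglia included, can also express. In control retinas Lyz2 was 69.9% to 83.4% of it without GCV and 44.6% to 73.4% with GCV. Without Lyz2 the sum was 2.98 to 7.97 in control retinas and 50.3 to 144.0 after IOP elevation without GCV, and 3.32 to 18.5 and 55.0 to 477.8 with GCV. The T and B cell markers Cd3e, Cd3g and Ms4a1 stayed at or under 0.338 FPKM in all 12 libraries. Nkg7, of cytotoxic lymphocytes, was at 0 in the 6 control libraries and at 0 to 0.759 FPKM in the IOP‐treated ones, and was called (adjusted p = 0.0382). With the eyes as a block 8 markers of each list were called, without Csf1r and Nkg7. The IOP‐treated retina of mouse 5 had the highest value of 8 of the 9 genes and also the highest microglia and leukocyte sums, and that of mouse 2 had the lowest sums among IOP‐treated retinas on all 3 counts (without Lyz2 the leukocyte sum was lowest in mouse 4). The part of these cells in the rise of the 9 genes was not tested.

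**Figure D4:**
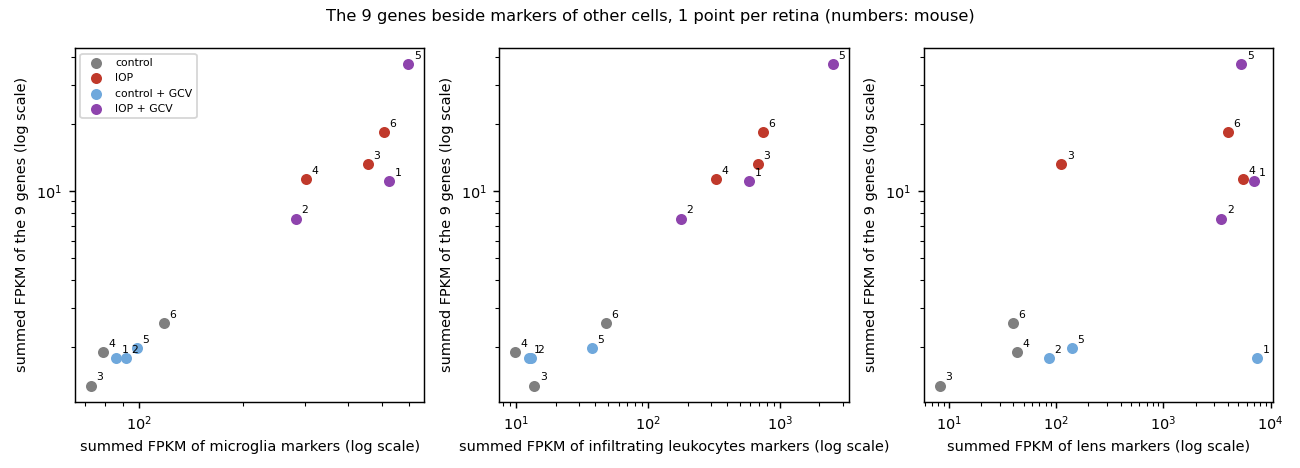
Summed FPKM of the 9 genes (y axis, log scale) against the summed FPKM of microglia, leukocyte and lens markers (x axes, log scale), with 1 point per retina and the mouse number beside it. IOP‐treated retinas lie above control retinas on the y axis in each panel, and in IOP‐treated retinas the leukocyte sum is mostly Lyz2. The control retina of mouse 1 has a lens sum of 7489 beside a sum of 1.78 for the 9 genes.

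Lens RNA also moved with IOP elevation, with 7 of 12 lens markers called higher, led by Bfsp2, Crybb2 and Bfsp1. With the eyes as a block 9 of the 12 were called. The control retina of mouse 1 had the highest lens sum of the 12 libraries, 7489 FPKM, and a sum of 1.78 FPKM for the 9 genes. The IOP‐treated retina of mouse 3 had a lens sum of 112.3 FPKM and 13.2 FPKM for the 9 genes. The part of lens tissue in the values of the 9 genes was not tested. None of the 7 blood markers with a row, of 8 retinal pigment epithelium markers or of 8 markers of cornea, iris and ciliary body was called. Of 7 endothelial markers 1 was called higher (Emcn), and of 8 Mueller glia markers 2 were called higher (Gfap and Vim) and 2 lower (Glul and Rlbp1, the latter not with the eyes as a block, adjusted p = 0.0547). None of 7 rod markers was called, and they summed to at least 32047 FPKM in each library, so the label of retina held. Of 8 markers of retinal ganglion cells 7 were called lower, and 1 with the eyes as a block. The IOP‐treated retina of mouse 4 stood apart, with a sum of 964.8 FPKM beside 995.9 FPKM in its control eye, where the other IOP‐treated retinas had 206.5 to 702.7 FPKM. With this library left out, 8 of the 9 genes were called over both treatments. Over all genes the calls rose at the same time, from 2258 to 4515.

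The genes whose pattern was most like that of the 4 members with a mean of at least 1 FPKM were looked up among 12910 genes, by Pearson's r of log2(FPKM + 1) over the 12 libraries. These coefficients describe libraries that fall into a low and a high set, so the value within groups is given beside each. These 4 members reach that mean only through their IOP‐treated libraries, so genes that are low in control and high in IOP‐treated retinas are favoured. For Casp1 the nearest genes were Nras (r = 0.99, 0.95 within groups) and Clec5a (0.99, 0.97). For Casp8 they were Tlr13 (0.99, 0.98) and Msr1 (0.99, 0.98). Pycard was nearest to Tmsb4x (0.99, 0.94) and Irgm1 (0.98, 0.95), and Gsdmd to Lpxn (0.98, 0.91) and Saa3 (0.97, 0.88). Msr1, for example, stood at a mean of 0.266 FPKM in control retinas and 5.31 FPKM in IOP‐treated retinas. Among the 9 genes themselves, the coefficients within groups ran from -0.06 for Casp1 with Casp12 to 0.955 for Casp1 with Nlrp3. Over the 12 libraries without removing the group means, these pairs had 0.665 and 0.773. Casp1 and Nlrp3 were both highest in the IOP‐treated retinas of mouse 5 (6.10 and 2.77 FPKM) and mouse 6 (5.34 and 0.713 FPKM). Coefficients without these libraries were not computed.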

How the data were processed

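RNA‐Seq libraries (TruSeq stranded mRNA, paired 50-base reads) came from 12 retinas. The authors state that reads were counted with HOMER on exons of RefSeq genes, and the submitters' processing notes name TopHat2, Bowtie2, Cufflinks, Cuffdiff and mm10. The table as deposited holds FPKM values with no stated unit. The unit was inferred, because values times transcript length fell on multiples of 1 number per library. Depth was estimated from these steps in 1904 genes with a single transcript (76.3% to 85.5% of values within 0.15 of a whole fragment), and the fragments of a member from the step of its own values (for Casp8, 6 of 7 low values were near whole, for the others all), so fragment numbers are estimates. Of 24340 rows, 18509 were above 0 in at least 1 library. Low genes rest on few fragments, and intervals and ratios of fragments cover counting error only.

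limma 3.58.1 (R 4.3.3) was fitted to log2(FPKM + 1), using 4 group means, a variance trend, all 12 libraries and Benjamini-Hochberg adjustment over all 18509 genes, and the fit was tested on simulated data. Comparisons were IOP within each treatment, over both, their difference, and GCV within each kind of eye. The 2 eyes of a mouse share its number, so the number pairs the samples. Deviations from group means correlated at -0.12 (mouse 1) to 0.39 (mouse 4) over 12910 genes. Other settings tried were 0.1 as pseudocount, a filter of 1 FPKM in 3 libraries, the mouse as a replicate block, median-ratio scaling, no variance trend, only the groups compared, and each library left out. Named genes are the 9 members, Casp9, Ripk1, Fadd, Il1b and Il18, the 3 called genes of smallest adjusted p per pathway or marker list, and the 2 genes most like each member of at least 1 FPKM. An item of this rule is not reported here. Other names were added after their values were seen. Members and lists were chosen with earlier results of these data known. Promoters are RefSeq windows of GRCm38.p6. Tables and plots used pandas 2.3.3, Python 3.11.15, matplotlib 3.10.9 and numpy 2.4.6.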

Additional observations from a re-analysis of the deposited data

How the results depend on the processing

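Over the 6 pairs, 8 of the 9 genes were called. The count was 8 with a pseudocount of 0.1, with median-ratio scaling and without the variance trend, and 6 with the filter of 1 FPKM in 3 libraries, which left out Casp12, Nlrp3 and Ripk3 and so kept genes that pass through their IOP‐treated libraries. With the mouse as a replicate block, the paired analysis, it was 6, and Casp4 (adjusted p = 0.0582) and Casp12 (0.065) were lost. With 1 library left out it ran from 5 to 8, and was 5 without the control retina of mouse 1, 2, 3, 4 or 5. Without GCV the count of 0 became 4 with a pseudocount of 0.1, 1 with the filter, 2 with only the groups compared and 3 with the block and a pseudocount of 0.1 together, a combination added after seeing the data. Leaving out 1 library gave 0 to 7. The count of 7 came when the IOP‐treated retina of mouse 5 was dropped, which enters this comparison through the shared spread, and it was 2 without that of mouse 4 or of mouse 2. With GCV the count of 0 became 5 with a pseudocount of 0.1, 3 with the filter and 4 with the block and that pseudocount. Leaving out 1 library gave 0 to 5. It was 5 when the IOP‐treated retina of mouse 2 was dropped, 4 without that of mouse 4, and 1 without that of mouse 1, 5 or 6. For the difference between the responses and for GCV within each kind of eye, the count was 0 of the 9 in each alternative run. No log2 fold change of the 9 genes turned in the 3 IOP comparisons.

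Over all genes, 2258 were called over the 6 pairs, 1351 with the block, and 830 to 4515 with 1 library left out. Without GCV the count was 306, with 464 at a pseudocount of 0.1, 75 with the block and 23 to 2490 with 1 library left out. With GCV it was 334, with 535, 144 and 77 to 1046, and 92 with only the groups compared. The pathway lists moved too: over the 6 pairs, inflammasome genes had 2 to 8 calls, gasdermins and substrates 1 to 4, apoptotic caspases 1 to 6 and the death complex 3 to 8. Casp4, Casp12, Ripk3 and Mlkl had 1 to 4 estimated fragments over the 6 control libraries, so their fold is poorly bounded.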
